A study of Homo sapiens with 6 samples.

Results

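Collagens are the triple-helical proteins of the extracellular matrix, each built from 3 polypeptide chains, and the family was taken here as all protein-coding rows of the expression table whose symbol has the form COL, number, A, number. The rule found 44 genes among 58037 rows, 19950 of them protein-coding. Of the 44, 20 had a mean of at least 0.5 FPKM over the 6 libraries and could be tested, and 24 lay below it. FPKM counts fragments relative to gene length and to the size of the library, so levels of different genes can be set side by side. Just inside the limit was COL4A3 with a mean of 0.511 FPKM, and just outside it were COL14A1 with 0.403 FPKM, COL17A1 with 0.401 FPKM and COL11A2 with 0.390 FPKM.

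The cells were HepaRG, a human hepatic line whose differentiated cultures hold both hepatocyte-like and biliary-like cells. All samples came from passages 15 to 18, with 14 days of growth, 14 days of differentiation and 5 days in basal medium. The fatty acid group (3 libraries) then received 0.5 mM of palmitate and oleate, 1 part to 2 parts, with 0.02% bovine serum albumin (BSA) as carrier, over 72 h. The control group (3 libraries) received 0.02% BSA without fatty acids over the same 72 h. HepaRG is 1 line, and the labels leave unsaid whether each replicate was its own culture, so the p-values rest on a spread among samples that may be technical. The study asked how fatty acid loading alters drug-metabolising enzymes, and collagen was not its stated subject.

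Fibrillar collagens, such as types I, III and V, are secreted as procollagens, trimmed and assembled into cross-linked fibrils. Type IV collagen instead forms the sheet-like network of basement membranes, and further classes coat fibrils, anchor epithelia or carry heparan sulphate chains. In liver, activated stellate cells are the best-known source of fibrillar collagen in fibrosis, whereas hepatocytes are a known source of type XVIII.

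The 6 type IV genes lie in 3 pairs, each transcribed outwards from a shared stretch of promoter, and the sequences of those stretches are shown because the members of a pair are compared below. RefSeq start sites on GRCh38.p14 are 127 bases apart for COL4A1 and COL4A2 on chromosome 13, 419 bases for COL4A4 and COL4A3 on chromosome 2, and 380 bases for COL4A6 and COL4A5 on the X chromosome. Each window runs from 250 bases before to 50 bases after the start site of the named gene, 5′ to 3′ on that gene's strand. Capitals mark a GC box (GGGCGG) or a CCAAT box (CCAAT) on either strand, and no capitals overlap 2 motifs. The COL4A2 window, chr13:110307034-110307333 on the plus strand, holds the start sites of both COL4A2 and COL4A1. The COL4A4 window is chr2:227164156-227164455 on the minus strand, the COL4A3 window chr2:227164374-227164673 on the plus strand, the COL4A6 window chrX:108439409-108439708 on the minus strand and the COL4A5 window chrX:108439588-108439887 on the plus strand.
COL4A2: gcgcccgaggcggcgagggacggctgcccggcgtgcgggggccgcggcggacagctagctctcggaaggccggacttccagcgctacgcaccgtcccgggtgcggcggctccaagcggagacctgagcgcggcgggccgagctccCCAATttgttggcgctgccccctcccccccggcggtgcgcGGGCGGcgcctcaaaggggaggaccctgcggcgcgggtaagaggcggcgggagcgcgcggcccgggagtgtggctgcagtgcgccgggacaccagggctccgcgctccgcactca
COL4A4: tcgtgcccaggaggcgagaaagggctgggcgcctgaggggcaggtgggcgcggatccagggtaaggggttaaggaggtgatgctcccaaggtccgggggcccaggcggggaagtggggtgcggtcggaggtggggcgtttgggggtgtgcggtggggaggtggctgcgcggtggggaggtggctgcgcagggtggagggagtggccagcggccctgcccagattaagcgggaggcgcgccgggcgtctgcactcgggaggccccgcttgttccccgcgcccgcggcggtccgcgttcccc
COL4A3: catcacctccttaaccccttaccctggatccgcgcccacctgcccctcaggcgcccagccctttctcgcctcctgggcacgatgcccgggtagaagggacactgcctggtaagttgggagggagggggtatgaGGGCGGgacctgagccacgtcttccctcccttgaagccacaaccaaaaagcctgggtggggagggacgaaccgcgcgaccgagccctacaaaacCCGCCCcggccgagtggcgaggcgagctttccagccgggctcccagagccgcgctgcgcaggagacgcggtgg
COL4A6: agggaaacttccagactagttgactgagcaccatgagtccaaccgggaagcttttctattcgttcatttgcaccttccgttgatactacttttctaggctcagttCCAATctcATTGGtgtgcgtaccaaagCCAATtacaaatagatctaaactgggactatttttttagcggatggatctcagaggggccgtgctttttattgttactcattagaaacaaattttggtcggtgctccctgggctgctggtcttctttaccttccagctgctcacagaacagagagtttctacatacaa
COL4A5: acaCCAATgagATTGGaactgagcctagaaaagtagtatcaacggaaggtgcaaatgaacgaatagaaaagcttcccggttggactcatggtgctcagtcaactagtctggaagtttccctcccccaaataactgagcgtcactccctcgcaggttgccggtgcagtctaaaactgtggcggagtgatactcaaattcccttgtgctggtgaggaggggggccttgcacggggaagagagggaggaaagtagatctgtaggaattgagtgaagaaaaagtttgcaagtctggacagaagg
The COL4A2 window held 1 GC box and 1 CCAAT box, the COL4A3 window 2 GC boxes and the COL4A4 window neither motif. The COL4A6 and COL4A5 windows held 3 and 2 CCAAT boxes and no GC box. A motif of type IV promoters, CCCTNCCCC, was found once in the windows of COL4A2, COL4A1 and COL4A5 and not in the other 3, and TATAAA was in none of the 6. Among 35116 RefSeq promoter windows of the same length, 44.95% held GGGCGG, 34.61% CCAAT, 11.53% TATAAA and 11.37% CCCTNCCCC on either strand. GC content was 77.67% in the COL4A2 window, 74.0% in that of COL4A4, 67.67% in that of COL4A3, 43.67% in that of COL4A6 and 49.33% in that of COL4A5. These matches describe the letters only.

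Sequencing depth was 8.36, 14.36 and 15.94 M reads in fatty acid replicates 1, 2 and 3, and 8.96, 6.33 and 11.82 M reads in control replicates 1, 2 and 3. Mitochondrially encoded genes took 9.15% to 11.91% of the reads of fatty acid libraries and 12.23% to 14.96% of those of control libraries. Hepatocyte markers were present throughout, with 14 of 14 listed genes past the expression limit and summed levels of 15960 to 16410 FPKM in fatty acid and 18690 to 19530 FPKM in control libraries. Of these 14 genes, 4 were called higher and 9 lower in fatty acid cells, against 8.22% and 4.68% of all 14661 genes tested. The enzyme gene CPS1 averaged 13.3 FPKM in fatty acid and 40.1 FPKM in control cells, and the genes of the plasma proteins TTR, TF and AHSG also fell. The 4 that rose, named after their values were seen, encode abundant plasma proteins too. FGA averaged 2093 FPKM in fatty acid and 1316 FPKM in control cells, and FGB 1937 FPKM in fatty acid and 1185 FPKM in control cells. SERPINA1 (limma adjusted p = 0.0289) lost its call without fatty acid replicate 1, 2 or 3 (0.130, 0.0845 and 0.0722) or control replicate 2 or 3 (0.0735 and 0.0614), and HP (0.0118) without fatty acid replicate 1 or 2 (0.0681 and 0.0576). Both also lost it with quantile normalization (limma adjusted p = 0.161 and 0.105). EPCAM, a biliary marker, was at 0 in every library, and KRT19, another, averaged 316.0 FPKM in fatty acid and 342.7 FPKM in control cells. Of 16 stellate cell and fibroblast markers 12 passed the limit, with summed levels of 134.5 to 144.1 FPKM in fatty acid and 117.6 to 126.0 FPKM in control libraries, and 3 of the 16 are collagens. Among them ACTA2 averaged 22.4 FPKM in fatty acid and 20.7 FPKM in control cells, while THY1 was at 0 in every library and VIM averaged 0.044 FPKM in fatty acid and 0.0707 FPKM in control cells. Of 12 endothelial and immune markers 3 passed the limit. KDR averaged 25.56 FPKM in fatty acid and 40.65 FPKM in control cells. CD14 averaged 12.72 FPKM in fatty acid and 10.6 FPKM in control cells, and LYZ 1.763 and 1.204 FPKM. The other 9 lay below the limit, and CDH5, CD3E and MS4A1 among them were at 0 in every library. Calls in the other marker lists stand beside the same shares over all genes. CD24 was called lower among 5 tested biliary genes, and LUM higher among 12 stellate cell and fibroblast genes. KDR was called lower among 3 endothelial and immune genes. The part of any of these in the results below was not tested.

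Type VIII, XII and XVIII genes had the highest collagen levels, and the type I chain genes were listed at low values. COL8A1 averaged 36.5 ± 3.09 FPKM in fatty acid and 32.1 ± 0.878 FPKM in control cells (SD, n = 3 each, as for every value with ± FPKM below), which placed its mean over the 6 libraries at percentile 95.14 of all protein-coding genes. COL12A1 averaged 26.5 ± 4.08 FPKM in fatty acid and 25.1 ± 2.17 FPKM in control cells, and COL18A1 16.2 ± 2.31 FPKM in fatty acid and 27.1 ± 5.96 FPKM in control cells. Next in order came COL4A5, COL5A1, COL27A1, COL3A1, COL6A1, COL4A6 and COL4A2, with means over the 6 libraries between 7 and 13 FPKM. In control cells COL18A1 and COL12A1 were not separated by their replicate ranges, and neither were COL4A5 and COL5A1. COL1A1, the major chain of type I collagen, averaged 0.741 ± 0.214 FPKM in fatty acid and 1.41 ± 0.288 FPKM in control cells.

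**Figure D1:**
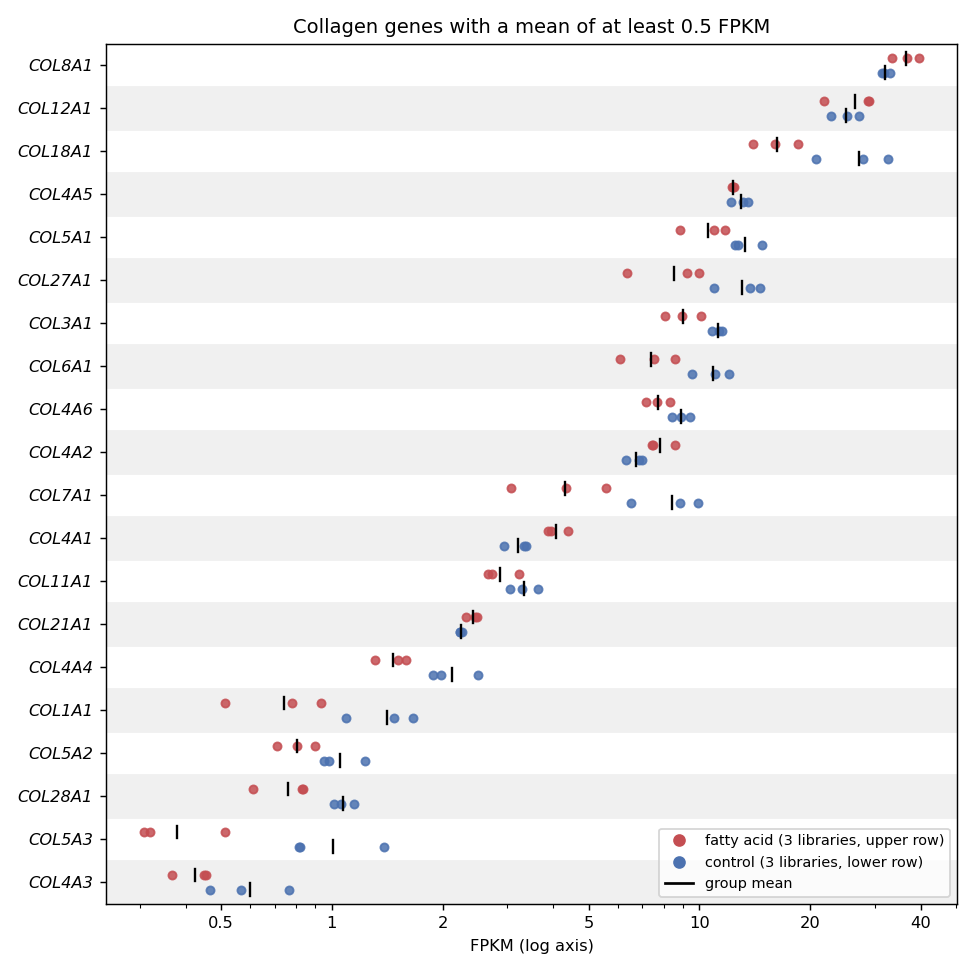
Level of the 20 tested collagen genes in each library, in FPKM on a log axis, with fatty acid libraries drawn above control libraries for each gene and a short line at each group mean. COL8A1 is at the high end, and COL7A1, COL5A3 and COL18A1 show fatty acid points to the left of all control points.

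Libraries of a group kept a common order across many of these genes. Fatty acid replicate 2 was the lowest of its group in 14 of the 20 genes and fatty acid replicate 3 the highest in 14. Among control libraries, replicate 2 was the lowest in 12 genes and replicate 1 the highest in 10. These counts were not made over all genes, so the order is not read as particular to collagen. In the highest GC bin of all genes, described below, the same libraries had the extreme median deviations. These were -0.132 and -0.0206 in fatty acid replicates 2 and 3, and -0.0493 and 0.273 in control replicates 2 and 1. In the lowest GC bin the extremes were reversed.

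COL18A1, COL7A1 and COL6A1 fell in fatty acid cells, and no collagen gene passed the test as higher. Of the 20 tested genes 0 were called higher, against 8.22% of all 14661 genes tested, and 3 were called lower, against 4.68% of all genes. Calls are adjusted p-values under 0.05 from limma with its trend option, run on log2(FPKM + 0.5), adjusted by Benjamini-Hochberg over all genes, and log2 fold changes are fatty acid minus control on that scale with their SE, which understates the change of low genes. At an unadjusted p under 0.05, 3 of the 20 collagen genes were higher and 10 lower, against 2796 and 1673 of all 14661 genes. Fatty acid and control values did not overlap for 17 of the 20: 4 were higher in fatty acid cells, against 23.7% of all genes, and 13 were lower, against 13.3% of all genes. The median log2 fold change was -0.27 over the 20 collagen genes and 0.04 over all genes tested. The 24 low members are not in these counts. The number called lower was 0 without fatty acid replicate 1, fatty acid replicate 2, control replicate 1 or control replicate 3, and 4 without control replicate 2. It was also 0 without an expression filter, and 10 with limma voom on the recovered reads. Calls over all genes changed in these fits too. From 686 lower in the main fit they went to 233, 245, 505 and 407 without those libraries, in the order named. They were 686 without control replicate 2, 337 without an expression filter and 1153 with voom. In bulk RNA, fewer cells of a type and less RNA per cell cannot be told apart.

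COL18A1 (chr21:45405137-45513720, plus strand) encodes a basement membrane proteoglycan whose C-terminal fragment is endostatin. It had 16.1, 14.0 and 18.6 FPKM in the fatty acid libraries, against 32.7, 20.8 and 27.9 FPKM in the control libraries. All fatty acid values lay below all control values, with control replicate 2 the closest. The log2 fold change was -0.71 ± 0.17 (95% interval -1.10 to -0.32, adjusted p = 0.0338 by limma), a control mean 1.67 times the fatty acid mean. The call was lost without fatty acid replicate 1, 2 or 3 (limma adjusted p = 0.115, 0.123 and 0.0523) and without control replicate 1 or 3 (0.0601 and 0.0907), while the log2 fold change stayed between -0.89 and -0.57. Its row overlaps that of SLC19A1 on the opposite strand over 20149 bases, and SLC19A1 averaged 1.09 FPKM over the 6 libraries.

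COL7A1 (chr3:48564073-48595267, minus strand) encodes the anchoring fibril collagen that ties the epidermal basement membrane to the dermis. It had 4.33, 3.06 and 5.57 FPKM in the fatty acid libraries, against 9.92, 6.50 and 8.83 FPKM in the control libraries. The groups did not overlap, and fatty acid replicate 2 was the lowest of all 6. The log2 fold change was -0.90 ± 0.21 (95% interval -1.40 to -0.41, adjusted p = 0.0346 by limma), a control mean 1.95 times the fatty acid mean. Without fatty acid replicate 1 or 2 the limma adjusted p was 0.111 and 0.1002, and without control replicate 1 or 3 it was 0.0765 and 0.0926.

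COL6A1 (chr21:45981737-46005050, plus strand) encodes 1 of the 3 chains that make the beaded filaments of type VI collagen. It had 7.52, 6.07 and 8.56 FPKM in the fatty acid libraries, against 12.0, 9.58 and 11.1 FPKM in the control libraries. Every fatty acid library was below every control library, and the log2 fold change was -0.54 ± 0.13 (95% interval -0.84 to -0.23, adjusted p = 0.0371 by limma). The call was lost without fatty acid replicate 1 or 2 (limma adjusted p = 0.115 and 0.107) and without control replicate 1 or 3 (0.0793 and 0.0941). The partner chains were scarcely read: COL6A2 had 38 reads over the 3 fatty acid and 27 over the 3 control libraries, and COL6A3 had 51 in fatty acid and 38 in control libraries. COL6A1 itself had 1531 reads in fatty acid and 1597 in control libraries. These read sums are not scaled for depth, which was greater over the fatty acid libraries together. In FPKM, COL6A2 averaged 0.188 in fatty acid and 0.190 in control cells, and COL6A3 0.0637 in fatty acid and 0.0743 in control cells. COL6A5 had 1 read in all 6 libraries and COL6A6 had 0.

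**Figure D2:**
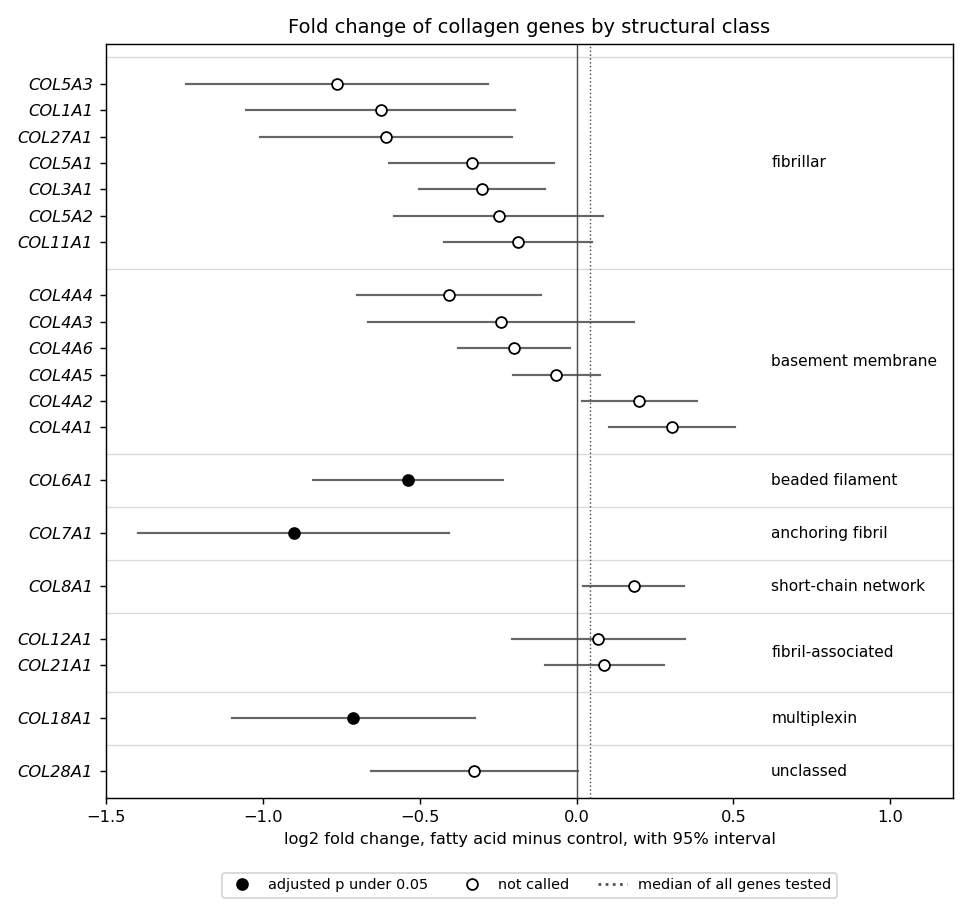
log2 fold change (fatty acid minus control) of log2(FPKM + 0.5) for the 20 tested collagen genes with 95% intervals, grouped by structural class. Filled points passed an adjusted p of 0.05 (COL18A1, COL7A1 and COL6A1), and the dotted line is the median of all genes tested, 0.04.

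Fibrillar collagens had 11 genes, of which 7 were tested, and 0 passed the test in either direction. All 7 had negative log2 fold changes, against 6282 of all 14661 genes tested. Their median was -0.33, against 0.04 over all genes. In 6 of the 7 the fatty acid values lay below all control values, against 13.3% of all genes. The GC content of these genes is given below. Summed over the class, the level was 33.4 ± 5.07 FPKM in fatty acid and 45.5 ± 3.66 FPKM in control cells. An exact permutation test of that sum (two-sided) gave p = 0.1, the smallest value that 3 against 3 allows.

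COL5A3 (chr19:9959561-10010471, minus strand), a minor chain of type V collagen, had 0.319, 0.309 and 0.511 FPKM in the fatty acid libraries, against 1.39, 0.819 and 0.815 FPKM in the control libraries. The control mean was 2.65 times the fatty acid mean, and the log2 fold change of -0.76 ± 0.21 had a limma adjusted p of 0.0507. COL5A1 (chr9:134641774-134844843, plus strand), the chain that starts fibrils with type I collagen, had 10.95, 8.86 and 11.8 FPKM in the fatty acid libraries, against 14.8, 12.5 and 12.8 FPKM in the control libraries. Its groups were apart, by a narrow margin between fatty acid replicate 3 and control replicate 2, at a limma adjusted p of 0.0939 (log2 fold change -0.33 ± 0.11). COL5A2 (chr2:189031896-189179879, minus strand) had 0.902, 0.710 and 0.806 FPKM in the fatty acid libraries, against 0.982, 0.949 and 1.23 FPKM in the control libraries, a log2 fold change of -0.25 ± 0.14 (limma adjusted p = 0.281). The ratio of COL5A1 to COL5A2 was 13.1 ± 1.33 in fatty acid and 12.9 ± 2.36 in control cells (SD, n = 3 each, exact permutation test, two-sided, p = 1).

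COL27A1 (chr9:114155560-114312511, plus strand), a fibrillar collagen best known from cartilage, had 9.27, 6.34 and 9.97 FPKM in the fatty acid libraries, against 13.7, 10.95 and 14.6 FPKM in the control libraries. COL3A1 (chr2:188974320-189012746, plus strand), the homotrimer of reticular fibres, had 8.96, 8.05 and 10.1 FPKM in the fatty acid libraries, against 11.3, 10.8 and 11.5 FPKM in the control libraries. In both genes the groups were apart and fatty acid replicate 2 was the lowest library. Their log2 fold changes were -0.61 ± 0.17 for COL27A1 (limma adjusted p = 0.0589) and -0.30 ± 0.09 for COL3A1 (0.0600). Leaving out 1 library gave COL3A1 a call without fatty acid replicate 3 (limma adjusted p = 0.0440) and COL27A1 one without control replicate 2 (0.0484). COL11A1 (chr1:102876467-103108496, minus strand), a minor fibrillar chain of cartilage, had 2.66, 2.72 and 3.24 FPKM in the fatty acid libraries, against 3.06, 3.30 and 3.65 FPKM in the control libraries. It was the fibrillar gene whose groups overlapped (log2 fold change -0.19 ± 0.10, limma adjusted p = 0.256).

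COL1A1 (chr17:50183289-50201632, minus strand) had 0.779, 0.511 and 0.933 FPKM in the fatty acid libraries, against 1.66, 1.09 and 1.47 FPKM in the control libraries. The groups were apart, with 282 reads in fatty acid and 385 reads in control libraries, and the log2 fold change was -0.62 ± 0.18 (limma adjusted p = 0.0655). COL1A2, whose product joins type I trimers with that of COL1A1, had 1 read over the 3 fatty acid libraries and 0 over the 3 control libraries. The ratio of the 2 type I chains therefore could not be given. VIM, given above, was also listed near 0. VIM overlaps 2 rows on the opposite strand and COL1A2 overlaps 0 other rows of the table, but how reads were assigned to rows is known only in part, so these values are not read as absence of the transcripts. COL2A1, COL11A2, COL24A1 and COL1A2 were the fibrillar genes below the expression limit.

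Type IV collagen, the basement membrane class, had all 6 genes tested, 0 called, and a median log2 fold change of -0.13. Its summed level was 33.8 ± 1.03 FPKM in fatty acid and 34.5 ± 1.45 FPKM in control cells, with overlapping groups (exact permutation test, two-sided, p = 0.7). The pairs shown above differed in sign: COL4A1 and COL4A2 had higher values in fatty acid cells, and the other 4 genes had lower mean values.

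COL4A1 (chr13:110148963-110307149, minus strand) and COL4A2 (chr13:110305812-110513027, plus strand) encode the chains of the type IV trimer found in most basement membranes. COL4A1 had 3.96, 4.39 and 3.88 FPKM in the fatty acid libraries, against 3.37, 2.93 and 3.33 FPKM in the control libraries. COL4A2 had 7.42, 7.46 and 8.56 FPKM in the fatty acid libraries, against 6.996, 6.31 and 6.87 FPKM in the control libraries. Both genes had all fatty acid values above all control values. The log2 fold changes were 0.30 ± 0.09 for COL4A1 (95% interval 0.10 to 0.50, limma adjusted p = 0.0583) and 0.20 ± 0.08 for COL4A2 (0.02 to 0.38, limma adjusted p = 0.137), so neither passed the test. With FPKM rescaled to TPM, which raised the median of all genes to 0.16, both passed as higher (limma adjusted p = 0.0244 for COL4A1 and 0.0279 for COL4A2), and COL8A1 passed as well. The ratio of COL4A1 to COL4A2 was 0.534, 0.588 and 0.454 in the fatty acid libraries, against 0.481, 0.464 and 0.484 in the control libraries. The groups overlapped, and the difference of 0.13 in the log2 ratio had p = 0.4 in an exact permutation test (two-sided). The 2 table rows overlap by 1338 bases on opposite strands.

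COL4A4 (chr2:227002711-227164113, minus strand) and COL4A3 (chr2:227164565-227314792, plus strand) encode chains of the network of the glomerular basement membrane. COL4A4 had 1.60, 1.31 and 1.51 FPKM in the fatty acid libraries, against 2.503, 1.88 and 1.98 FPKM in the control libraries, a log2 fold change of -0.41 ± 0.13 (limma adjusted p = 0.0745). COL4A3 had 0.367, 0.450 and 0.454 FPKM in the fatty acid libraries, against 0.465, 0.762 and 0.566 FPKM in the control libraries, a log2 fold change of -0.24 ± 0.18 (limma adjusted p = 0.406). Groups were apart in both genes, in COL4A3 only just. The ratio of COL4A4 to COL4A3 was 3.53 ± 0.740 in fatty acid and 3.78 ± 1.48 in control cells (SD, n = 3 each, exact permutation test, two-sided, p = 0.9). COL4A3 overlaps an antisense gene, AC097662.2, which averaged 0.274 FPKM.

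COL4A6 (chrX:108155607-108439497, minus strand) and COL4A5 (chrX:108439844-108697545, plus strand) are the X-linked pair. COL4A6 had 7.66, 7.14 and 8.31 FPKM in the fatty acid libraries, against 9.43, 8.92 and 8.40 FPKM in the control libraries, a log2 fold change of -0.20 ± 0.08 (limma adjusted p = 0.130). COL4A5 had 12.3, 12.4 and 12.3 FPKM in the fatty acid libraries, against 13.1, 12.2 and 13.6 FPKM in the control libraries, a log2 fold change of -0.06 ± 0.06 (95% interval -0.20 to 0.07, limma adjusted p = 0.498). The groups of COL4A6 were apart and those of COL4A5 overlapped, and after rescaling to TPM the COL4A5 value was 0.067, of the opposite sign. COL4A6 to COL4A5 was a ratio of 0.624 ± 0.0504 in fatty acid and 0.691 ± 0.0613 in control cells (SD, n = 3 each, exact permutation test, two-sided, p = 0.3).

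COL4A1 and COL4A2 together made up 34.1%, 35.7% and 35.5% of all type IV FPKM in the fatty acid libraries, against 28.9%, 28.0% and 29.4% in the control libraries. The groups were apart, and the exact permutation test (two-sided) gave p = 0.1, the smallest it can give for 3 against 3.

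**Figure D3:**
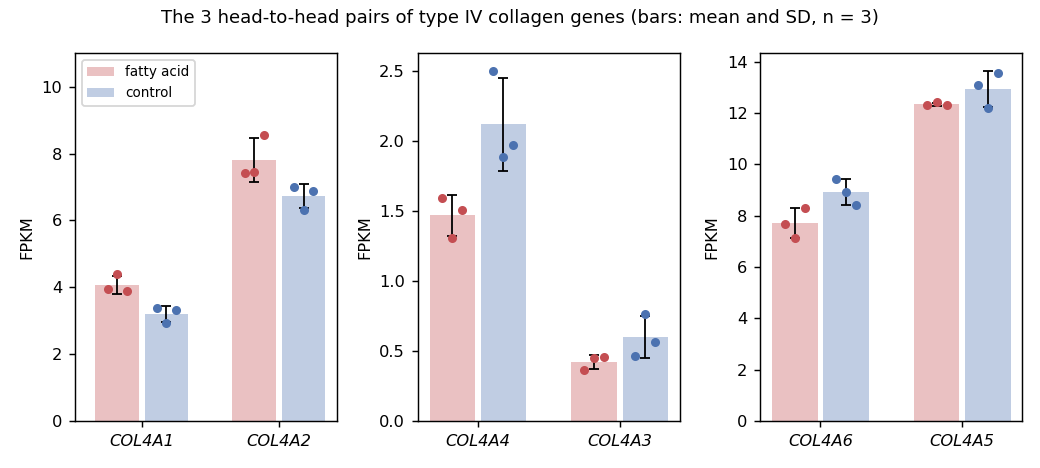
The 3 head-to-head type IV pairs in FPKM, with bars for the mean, whiskers for the SD (n = 3) and points for libraries, fatty acid left of control for each gene. COL4A1 and COL4A2 lie higher in fatty acid libraries, and COL4A3, COL4A4 and COL4A6 lower.

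The remaining tested genes came from small or poorly sampled classes. COL8A1 (chr3:99638475-99799226, plus strand), a short-chain network collagen of vessel walls and the cornea, had 39.5, 33.4 and 36.7 FPKM in the fatty acid libraries, against 31.3, 31.9 and 33.0 FPKM in the control libraries. The groups were apart by a small margin (log2 fold change 0.18 ± 0.07, limma adjusted p = 0.126). COL12A1 (chr6:75084326-75206051, minus strand), which coats type I fibrils, had 28.8, 28.96 and 21.8 FPKM in the fatty acid libraries, against 22.9, 27.2 and 25.2 FPKM in the control libraries. Its groups overlapped and the interval of its log2 fold change, 0.07 ± 0.12, ran from -0.21 to 0.34 (limma adjusted p = 0.727), and its sign changed with the GC correction described below, to -0.018. COL21A1 (chr6:56056590-56394094, minus strand), another fibril-associated collagen, had 2.45, 2.31 and 2.49 FPKM in the fatty acid libraries, against 2.24, 2.25 and 2.24 FPKM in the control libraries (log2 fold change 0.09 ± 0.08, limma adjusted p = 0.500, and -0.017 with the same correction). COL28A1 (chr7:7356203-7535853, minus strand), a collagen with von Willebrand factor A domains, had 0.831, 0.610 and 0.834 FPKM in the fatty acid libraries, against 1.011, 1.15 and 1.06 FPKM in the control libraries. Fatty acid values lay above all control values in COL21A1 and below them in COL28A1 (log2 fold change -0.33 ± 0.14, limma adjusted p = 0.168).

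Summed over all 44 genes, collagen transcripts took a slightly smaller part of the library in fatty acid cells. Their share of reads was 0.165%, 0.147% and 0.162% in the fatty acid libraries, against 0.190%, 0.1701% and 0.186% in the control libraries. All fatty acid shares were below all control shares, a difference of -0.0240 percentage points, with p = 0.1 in an exact permutation test (two-sided), the smallest it can give. Mitochondrial reads, given above, were also a smaller share in fatty acid libraries. Over nuclear reads alone the collagen share was 0.176% ± 0.0126 in fatty acid and 0.211% ± 0.0119 in control cells (SD, n = 3 each). By summed FPKM, fibrillar genes made up 20.4% of collagen in fatty acid and 24.0% in control cells, COL18A1 with COL15A1 9.91% in fatty acid and 14.3% in control cells, and the short-chain class 22.4% in fatty acid and 17.0% in control cells.

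**Figure D4:**
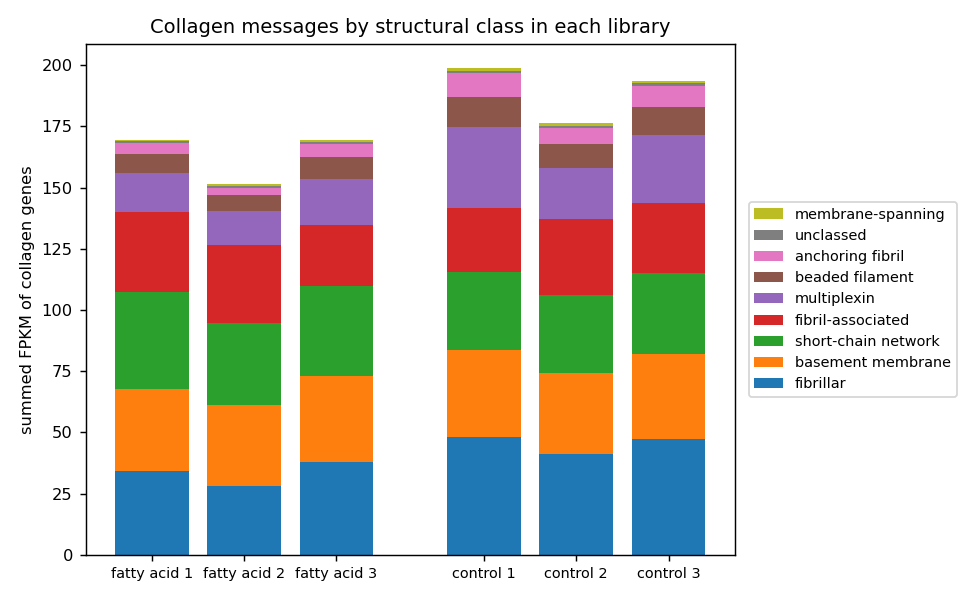
Stacked bars of the summed FPKM of each structural class of collagen, 1 bar per library, with the 3 fatty acid libraries left of the 3 control libraries. Fibrillar genes average 33.4 FPKM in fatty acid and 45.5 FPKM in control cells, and basement membrane genes 33.8 FPKM in fatty acid and 34.5 FPKM in control cells.

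The collagen genes that fell were among the most GC-rich members tested. The 3 called genes had transcript GC contents of 67.2% (COL18A1), 64.8% (COL7A1) and 63.5% (COL6A1). Of the 8 tested collagen genes with at least 60% GC 7 had negative log2 fold changes, with a median of -0.62 over the 8, and of the 12 below 60% 8 were negative, with a median of -0.19. Over all tested genes, the median log2 fold change was -0.16 in the highest of 10 equal bins of GC content and 0.17 in the lowest. In the highest bin 1.16% of genes were called higher and 8.21% lower, and in the lowest 16.9% higher and 1.71% lower. By library, the median deviation of the highest bin minus that of the lowest was -0.174, -0.247 and -0.0821 in fatty acid replicates 1, 2 and 3. In control replicates 1, 2 and 3 it was 0.437, -0.00928 and 0.102. All fatty acid values lay below all control values, and control replicate 1 was the highest. The cause of this difference was not tested. After a correction of each library for GC content, chosen after seeing the data, COL18A1 had a log2 fold change of -0.50 (limma adjusted p = 0.0172), COL7A1 -0.73 (0.0336) and COL6A1 -0.38 (0.0460), and all 3 stayed called lower. In the same fit COL4A1 (0.35, limma adjusted p = 0.0353) and COL4A2 (0.34, 0.0272) passed as higher, while with the replicate number added as a block COL4A1 did not (0.0790). No fibrillar gene was called in the GC-corrected fit without the block. The fibrillar genes COL5A1, COL27A1 and COL1A1 lay in a bin with a median of -0.10 over all genes, and COL5A3 in one with -0.16. For COL3A1, COL11A1 and COL5A2 the bin medians were -0.003, 0.08 and 0.08. Class sums and collagen shares were not corrected for GC content.

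**Figure D5:**
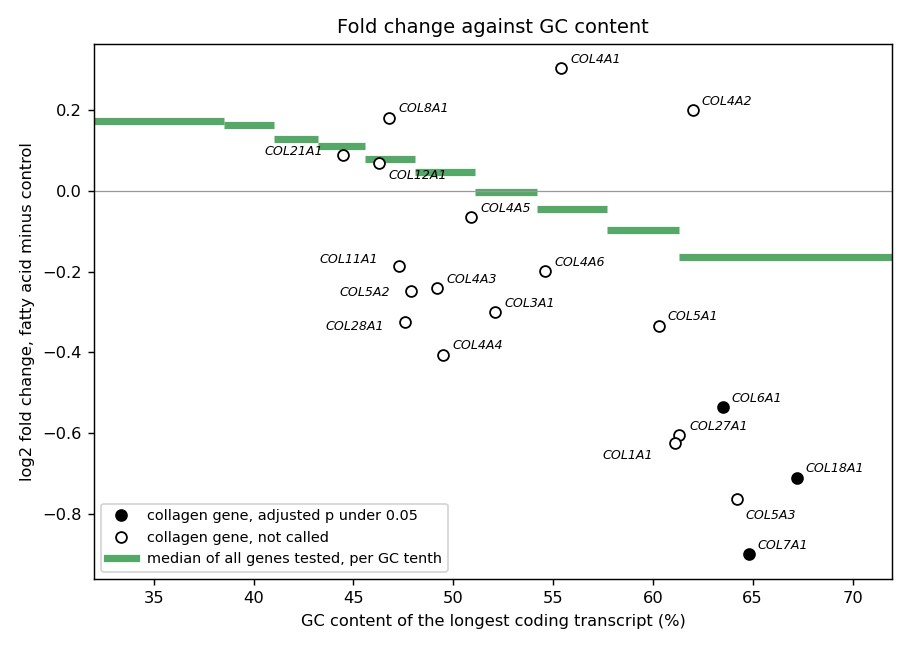
log2 fold change (fatty acid minus control) of the 20 tested collagen genes against transcript GC content in percent, with the median of all genes tested in each of 10 equal bins of GC content as bars. The 3 called genes lie below the bars at over 60% GC, and COL4A1 and COL4A2 lie above them.

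Of the 24 genes below the limit, the highest mean was 0.403 FPKM. Reads were absent from all 6 libraries for COL8A2, COL25A1 and COL6A6, which allows, at 3 reads over the 65.79 M reads of the 6 libraries, levels of up to 0.00976, 0.00685 and 0.00469 FPKM. Another 6 genes had 1 to 9 reads and 15 had 10 or more. These limits cover counting error only. COL24A1, a fibrillar collagen, had 0.25, 0.138 and 0.321 FPKM in the fatty acid libraries, against 0.431, 0.528 and 0.592 FPKM in the control libraries, and COL11A2 had 0.319, 0.3 and 0.270 FPKM in the fatty acid libraries, against 0.596, 0.352 and 0.502 FPKM in the control libraries. In these 2 genes fatty acid values lay below all control values, and in 0 of the 24 did they lie above. The share of such genes among all genes below the limit was not computed. The counts are therefore not read as a result about collagen genes. None of the 24 was tested.

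Genes that act on procollagen chains and on assembled collagen are described next by list, each beside the 8.22% of all tested genes called higher, the 4.68% called lower and the median log2 fold change of 0.04 over all genes. Of 17 tested genes of 20 in a list of chain modification and folding, 5 rose and 1 fell, with a median of 0.16. With the GC correction the number that rose was 2. PPIB, a prolyl isomerase of the endoplasmic reticulum, averaged 216.9 ± 2.34 FPKM in fatty acid and 168.8 ± 9.10 FPKM in control cells (log2 fold change 0.36 ± 0.05, limma adjusted p = 0.00740), and lost its call without fatty acid replicate 1 (0.0502). PLOD2, a lysyl hydroxylase, averaged 21.6 ± 0.622 FPKM in fatty acid and 16.6 ± 1.37 FPKM in control cells (0.37 ± 0.07, limma adjusted p = 0.0184), with 0.0686, 0.0801 and 0.0636 without fatty acid replicate 1, 2 or 3 and 0.0515 with quantile normalization. FKBP14, another prolyl isomerase, and TMEM38B, a channel of the endoplasmic reticulum, also rose (limma adjusted p = 0.0230 and 0.0274). FKBP14 lost its call without fatty acid replicate 1, 2 or 3 (0.1004, 0.0770 and 0.0750) or control replicate 3 (0.0664), and TMEM38B without fatty acid replicate 1, 2 or 3 (0.116, 0.102 and 0.0504) or control replicate 3 (0.0535). With the replicate number as a block the limma adjusted p was 0.0528 for FKBP14 and 0.0599 for TMEM38B. The other calls, named after their values were seen, were P4HA1, a prolyl hydroxylase subunit, as higher (limma adjusted p = 0.0323) and SPARC, a collagen-binding glycoprotein, as lower (0.04996). P4HA1 lost its call without fatty acid replicate 1, 2 or 3 (0.123, 0.103 and 0.0872) or control replicate 2 or 3 (0.0678 and 0.0863), and SPARC without fatty acid replicate 1, 2 or 3 (0.174, 0.107 and 0.122) or control replicate 1 or 2 (0.0909 and 0.102). Transcript GC content was 34.0% for TMEM38B, 37.6% for PLOD2, 38.8% for FKBP14 and 40.8% for P4HA1, in the 2 lowest GC bins, where 16.3% and 16.9% of all genes were called higher. After the GC correction the log2 fold changes of these 4 genes were 0.16 (TMEM38B), 0.19 (PLOD2), 0.14 (FKBP14) and 0.18 (P4HA1), and all 4 calls were lost (limma adjusted p = 0.149, 0.0662, 0.192 and 0.235). PPIB (0.45) and SPARC (-0.36) were still called, and SPARC had -0.15 after rescaling to TPM (limma adjusted p = 0.294).

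SEC24D, a COPII coat protein that carries procollagen out of the endoplasmic reticulum, averaged 9.05 ± 0.517 FPKM in fatty acid and 6.36 ± 0.122 FPKM in control cells (log2 fold change 0.48 ± 0.07, limma adjusted p = 0.00553). The export list had 13 tested genes, of which 0 fell, and a median of 0.08. SEC24D was 1 of 2 genes in it that rose, too few to compare with the 8.22% of all genes. The other was the COPII coat gene SEC31A (limma adjusted p = 0.0392), which missed the threshold without fatty acid replicate 1, 2 or 3 (0.123, 0.152 and 0.0837) or control replicate 1 or 3 (0.0654 and 0.0981). It also missed it after scaling by nuclear genes alone (0.0749), by quantiles (0.0788) or by the median of ratios (0.0703), and with the GC correction (0.0785), which moved its log2 fold change to 0.16, against 0.25 without it. The list of propeptide removal and cross-linking held 14 genes, 9 of them below the expression limit and not tested. Of the 5 tested, 0 rose and 1 fell (median -0.05). That gene, PCOLCE, which enhances C-propeptide cleavage, averaged 79.0 ± 3.48 FPKM in fatty acid and 102.9 ± 10.5 FPKM in control cells (log2 fold change -0.38 ± 0.08, limma adjusted p = 0.0238), with 0.103, 0.1002 and 0.0507 without fatty acid replicate 1, 2 or 3. Its log2 fold change was -0.24 both with the GC correction, where it was still called (limma adjusted p = 0.0329), and with TPM, where it was not (0.101).

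Of 7 tested collagen receptor genes 2 rose and 2 fell, against the 8.22% and 4.68% of all genes, with a median of 0.02. ITGA2, the integrin alpha chain that binds fibrillar and type IV collagen, averaged 3.82 ± 0.444 FPKM in fatty acid and 1.93 ± 0.151 FPKM in control cells (log2 fold change 0.83 ± 0.11, limma adjusted p = 0.00418). ITGA10, another collagen-binding alpha chain, averaged 16.3 ± 0.261 FPKM in fatty acid and 24.8 ± 2.00 FPKM in control cells (-0.59 ± 0.07, limma adjusted p = 0.00252). Both kept their calls in all 19 alternatives. ITGB1, their shared beta chain, rose (limma adjusted p = 0.0217) and ITGA11 fell (0.0256). ITGB1 missed the threshold without fatty acid replicate 1, 2 or 3 (0.0890, 0.0946 and 0.0580). ITGA11 missed it without fatty acid replicate 1, 2 or 3 (0.0754, 0.0906 and 0.0757) or control replicate 2 (0.0518). After the GC correction ITGB1 had a log2 fold change of 0.19, against 0.35 without it, and lost its call (limma adjusted p = 0.0601), and ITGA11 lost its call with TPM (0.0987).

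Among 12 tested partners of type IV collagen in basement membranes, 2 rose and 1 fell, with a median of 0.12. These counts are too small to compare with the 8.22% and 4.68% of all genes. LAMA4, a laminin alpha chain, averaged 7.02 ± 0.527 FPKM in fatty acid and 4.03 ± 0.379 FPKM in control cells (log2 fold change 0.73 ± 0.09, limma adjusted p = 0.00361), and was called in all 19 alternatives. Of the laminin beta chain genes, LAMB1 rose (limma adjusted p = 0.0331) and LAMB2 fell (0.0219). With 1 library left out the log2 fold change stayed between 0.21 and 0.27 for LAMB1 and between -0.47 and -0.32 for LAMB2, but calls were lost. LAMB1 missed the threshold without fatty acid replicate 1 or 2 (0.142 and 0.134) or control replicate 2 or 3 (0.0513 and 0.0807), and LAMB2 missed it without fatty acid replicate 1, 2 or 3 (0.0884, 0.0922 and 0.0591). LAMB1 also missed it after scaling by nuclear genes alone (limma adjusted p = 0.0571), by quantiles (0.0724) or by the median of ratios (0.0531), and LAMB2 with TPM (0.0762). Of 11 tested fibril-binding proteoglycans and glycoproteins 1 rose and 1 fell, with a median of 0.23. LUM, a proteoglycan that binds fibrils, averaged 60.7 ± 1.88 FPKM in fatty acid and 44.3 ± 3.89 FPKM in control cells (0.45 ± 0.07, limma adjusted p = 0.00846, and 0.0537 without fatty acid replicate 1), and 0.27 after the GC correction (limma adjusted p = 0.0280). THBS1, thrombospondin, averaged 39.8 FPKM in fatty acid and 52.0 FPKM in control cells (-0.38, limma adjusted p = 0.00861).

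TGF-beta signalling, which drives collagen transcription in stellate cells, had 19 tested genes, of which 2 rose and 3 fell (median 0.09). The 2 that rose among 19 are close to the 8.22% of all genes, and the 3 that fell compare with 4.68%. LTBP1, which stores latent TGF-beta in the matrix, averaged 7.23 ± 0.653 FPKM in fatty acid and 2.71 ± 0.200 FPKM in control cells (log2 fold change 1.27 ± 0.09, limma adjusted p = 0.000291). CTGF (CCN2), a matricellular protein and TGF-beta target, averaged 63.4 ± 10.1 FPKM in fatty acid and 117.8 ± 12.2 FPKM in control cells (-0.90 ± 0.12, limma adjusted p = 0.00527). BAMBI, a decoy receptor, averaged 5.68 FPKM in fatty acid and 9.09 FPKM in control cells (-0.63, limma adjusted p = 0.00137). These 3 genes were called in all 19 alternatives. LTBP3, with a GC content of 67.8%, fell (log2 fold change -0.43, limma adjusted p = 0.0234), with 0.0784, 0.0979 and 0.0579 without fatty acid replicate 1, 2 or 3. After the GC correction it had -0.21 and lost its call (limma adjusted p = 0.0962), as it did with TPM (0.0668). TGFBR3, a coreceptor named after its values were seen, rose (limma adjusted p = 0.0269), with 0.118, 0.0798 and 0.0757 without fatty acid replicate 1, 2 or 3, and 0.0507 and 0.0626 without control replicate 2 or 3. Its log2 fold change of 0.31 was 0.20 after the GC correction, without a call (limma adjusted p = 0.0966), and its call was also lost with the replicate number as a block (0.0569) and with scaling without mitochondrial genes (0.0530).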

How the data were processed

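RNA was sequenced from 6 samples of differentiated HepaRG cells as stranded mRNA libraries from 100 ng of RNA, per the labels' protocols. STAR 2.5.2, Subread 1.5.1 with featureCounts, and the build GRCh38 are named in the submitters' processing notes. The sources used here do not give whether counting used strand, so opposite-strand overlaps may share reads. The authors deposited FPKM values with 3 decimals and, per the file headers, gene positions and lengths. A total of reads per library was fitted so that FPKM times gene length gave whole reads. With it, 100% of the finely printed values were whole within their rounding error plus 0.02 reads. This fit gave the depths and read counts in the text.

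The test was limma 3.58.1 (R 4.3.3) on log2(FPKM + 0.5), fatty acid against control, for genes averaging 0.5 FPKM or more, with Benjamini-Hochberg adjustment over 14661 genes at 0.05. The call counts over all genes were 1205 higher and 686 lower, but 779 and 818 with median-of-ratios scaling, 758 and 772 with quantile normalization, 706 and 828 with scaling without mitochondrial genes, and 2615 and 412 with TPM. Alternatives varied the pseudocount, filter, scaling, trend, replicate block and libraries, and used voom or a GC correction. Sums, shares and ratios used exact permutation tests, two-sided. Every tested collagen gene is named, and for each list up to 4 called genes with the smallest adjusted p. The collagen genes and the 11 lists were chosen with earlier results of these data known. GC content is that of the longest coding transcript in GENCODE 29, and 32 of the 44 genes had a RefSeq promoter window. The method was checked on simulated data. Python 3.11.15, numpy 2.4.6, pandas 2.3.3 and matplotlib 3.10.9 were used.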

Additional observations from a re-analysis of the deposited data

How the results depend on the processing

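Across 19 alternatives, 325 of 372 values of single collagen genes kept their direction and side of the threshold, 19 lost and 23 gained a call, and 5 changed sign. The count of collagen genes called higher, 0 as reported, was 3 after rescaling to TPM, 1 with limma voom on recovered reads (COL4A1), 2 with the GC correction and 1 with the replicate block and GC correction together. The count called lower, 3 as reported, was 0 without an expression filter, 5 with a minimum of 2 FPKM and 1 without the intensity trend (COL5A3). It was 10 with voom and 5 with the replicate block and GC correction together. Calls over all genes changed in these fits too, and the filter changes the number tested. Lower calls were 337 without a filter, 731 with the 2 FPKM minimum and 459 without the trend. They were 1153 with voom and 674 with block and GC correction together. Higher calls were 2615 with TPM, 1846 with voom, 703 with the GC correction and 559 with block and GC correction together. Leaving out 1 library gave 0 to 4 collagen genes lower and 0 higher. Over all genes it gave 233 to 686 lower and 230 to 1109 higher. The GC correction and its combination with the block were chosen after seeing the data. COL12A1 became -0.018 and COL21A1 -0.017 under both GC corrections, and COL4A5 became 0.067 with TPM. The difference in collagen share was -0.0345 percentage points over nuclear reads and -0.0300 to -0.0185 with 1 library left out. The COL4A1 to COL4A2 difference ran from 0.05 to 0.23 with 1 library left out. For the other changes with the processing, the cause was not tested.

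Deviations of same-numbered libraries from their group means had correlations of 0.0122, 0.0836 and 0.0224 over genes. Those of differently numbered libraries ran from -0.094 to 0.0731. Such deviations also carry counting error, so they cannot show whether same-numbered libraries were paired. With the replicate number as a block, 4 collagen genes were called lower (COL27A1 added) and 0 higher, and over all genes 817 were higher and 657 lower.

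The count of rising genes in the chain modification list, 5 as reported, was 0 to 7 with 1 library left out, 2 with the GC correction and 2 to 8 under all alternatives but leaving out a library. The ratio of COL1A1 to COL1A2 was not computed, since COL1A2 had 1 read in all. The 24 low genes were left out by the expression limit, and 9 of them had under 10 reads.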
